A study of Danio rerio with 30 samples.

Results

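The genes described here belong to the immune cell and cytokine pathways of the adult zebrafish intestine. They are the spots whose gene symbol, updated through synonyms, begins with mhc, b2m, cxc, ccl, tnf, nfkb, ifn or lyz, or with il, irf, stat or tlr followed by a digit, together with mpx, lcp1, coro1a, ptprc, spi1a and spi1b. Of the 23232 spots on the array, 90 met this rule. They carried 67 gene symbols and formed 76 probes, because 15 spots of cxcr4a carry the same identifier and were averaged. No spot analysed here carried ptprc or spi1a. In S1 to S5, 74 of the 76 probes entered the tests, since ifng1 and mhc2dga were too close to background, and these 74 are read beside all 19480 probes tested. The symbols irf2bp2, irf2bp2a, irf2bpl, il1rapl1a and nfkbil1 match the letters of the rule without naming a member of these families and were counted apart.

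Each array compared an intestinal segment, its RNA labelled with Cy5, with a reference of whole adult fish in Cy3. The segments were cut from wild-type male fish about 1 year old, S1 being the most rostral and S7 the most caudal, and each replicate pooled one segment from 10 fish. The reference RNA mixed 9 parts male with 1 part female whole-fish RNA. There were 5 arrays each of S1, S2, S3 and S4, 4 of S5 and 3 each of S6 and S7, and no treatment was applied to any group. A value below is the log2 ratio of Cy5 to Cy3, so that 0 is the level of the whole fish and 1 is 2-fold above it. Normalization centred the probes of each array near 0, so this level is relative to the typical probe. A ratio says nothing of how one gene compares with another in amount, and since the dyes were never swapped, any bias of a probe toward Cy5 or Cy3 is part of its value.

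The innate immune system reads microbial molecules through receptors such as the Toll-like receptors (TLRs), which act through NF-kB and the interferon regulatory factors (IRFs). Cytokines and interferons made in response bind receptors that signal through STAT proteins, and chemokines guide leukocytes to the tissue. The gut holds many leukocytes below and within its epithelium. Peptides are shown to T cells on major histocompatibility complex (MHC) molecules, those of class I on nearly all cells and those of class II mainly on macrophages, dendritic cells and B cells. In whole pieces of gut, fewer cells of a type and less RNA per cell cannot be told apart.

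The Cy5 signal was above background, meaning a spot median over 2 SD beyond the local background median, on 37.8% to 69.6% of spots in the S1 to S5 arrays. Of these 24 arrays, 17 were scanned finely and 7 coarsely, and the coarse scans lay in S1 (2 arrays), S2 (4) and S3 (1). The Cy3 signals of these arrays correlated with a mean r of 0.924 across probes. The 6 arrays of S6 and S7 stood apart: their Cy3 signals correlated with those of S1 to S5 at a mean r of 0.136 although the reference has the same label, so S6 and S7 are treated last. Absorptive epithelium markers were 2-fold or more above the whole fish for 5 of 6 measured genes in S1 to S5 (vil1, which encodes the brush border protein villin, at 2.51), while the 5 measured erythrocyte genes were 2-fold or more below it. Along S1 to S5 all 5 measured exocrine pancreas genes passed the F test, their mean ratio ranging over arrays from -0.27 to 0.13 in S1 and from 1.04 to 1.78 in S5. Their Cy5 spots were saturated on 22 to 24 of the 24 arrays, so these ratios do not give the size or direction of a change in the segments. Of 5 measured liver genes 3 passed it, with mean ratios of -0.12 to 0.39 in S1 and -2.09 to -1.07 in S3. Among the epithelial genes apoa4a, an apolipoprotein, was lower in S5, with means of 4.59 in S1, 3.91 in S4 and 1.72 in S5. The gene apobb.1 differed by -0.98 between S5 and S1 to S4 (limma adjusted p = 0.0166). Of these epithelial genes, Cy5 was saturated on 9 of 24 arrays for apoa4a, 14 for apobb.1, 22 for fabp2 and 23 for apoa1a. Their ratios could thus be compressed. The part of such tissue in the results below was not tested.

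Over S1 to S5, 8 of the 74 probes (10.8%) differed among segments by limma's moderated F test at a Benjamini-Hochberg adjusted p under 0.05, where 6.17% of all probes did. The largest difference between segment means had a median of 0.37 log2 units over the members and 0.37 over all probes. A slope along the 5 segments was found for 3 probes (4.05%, against 4.71% of all), of which 2 rose toward S5 (2.37% of all probes did) and 1 fell (2.35% did). Between S5 and the mean of S1 to S4, 5 probes differed (6.76%, against 5.53% of all), 2 being higher in S5 (2.71% of all) and 3 lower (2.82% of all). Against the whole fish, 11 probes differed at least 2-fold (14.9%, against 21.3% of all). Of these, 5 probes were at least 2-fold higher (6.76%, where 8.27% of all were) and 6 at least 2-fold lower (8.11%, where 13% of all were). Most members were thus within 2-fold of the whole fish, with a median ratio of 0.07. The median over all probes was 0.01, which the centring of each array sets near 0. Against 0, 57 of the 74 had an unadjusted p under 0.05 in limma. The share of all probes that did was not computed, so this count cannot be read as a trait of the members.

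**Figure D1:**
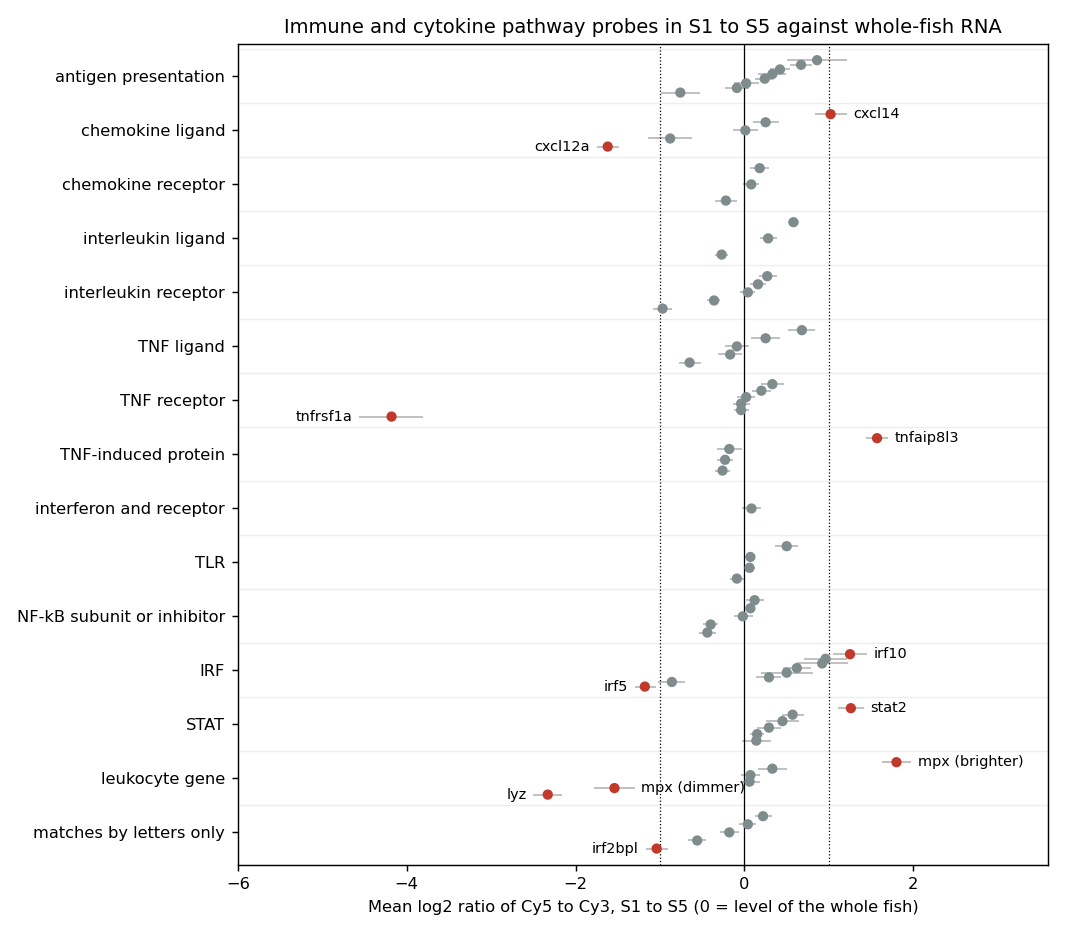
Mean log2 ratio to the whole fish of the 74 tested probes in S1 to S5 by role, with 95% confidence intervals (n = 24 arrays); filled red points passed the test and were at least 2-fold from 0. The 5 probes above the upper dotted line and the 6 below the lower one are named, from 1.80 for the brighter probe of mpx to -4.18 for tnfrsf1a.

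Among antigen presentation genes, the heavy chain genes of class I that met the rule were above the whole fish. The class II gene with a level was below it, while the brighter probe of b2m did not differ from it (limma adjusted p = 0.22). Spots deposited under the class I symbols mhc1uda (-0.11 and 0.49) and mhc1ufa (0.17) were left out of the members, because their updated symbol is tapbp.1. The mhc1uda spot at -0.11 stands for tapbp.1 in the list of antigen processing genes below. The brightest member of this role was b2m, the light chain of class I molecules. Its brighter probe was saturated in Cy5 on 18 of 24 arrays and read between -0.55 and 0.53, with a median of -0.07, so its ratio could be compressed. The class I heavy chain gene mhc1zba had a mean of 0.67 (SE 0.0638, n = 24, limma adjusted p = 1.09e-09) and was above 0 on 24 of 24 arrays. The heavy chain gene mhc1uba averaged 0.86 (SE 0.172, adjusted p = 7.63e-05) but ranged from -0.89 to 2.18, and mhc1laa averaged 0.33 with Cy5 above background on 11 arrays. Both were thus higher than in the whole fish on average, with a wide spread between pools for mhc1uba. The class II beta chain gene mhc2dhb averaged -0.76 (SE 0.112, adjusted p = 1.13e-06) and was above 0 on 2 of 24 arrays. The class II alpha chain gene mhc2dga was above background on 0 of 24 arrays in either dye and gives no level. The dimmer probe of b2m, above background in Cy5 on 3 arrays, read 0.24, and the probes of b2ml, which resembles b2m, read 0.02 and 0.42 and moved together (r = 0.862 across 24 arrays).

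None of the 8 tested antigen presentation probes passed the F test over S1 to S5, and 0 had an unadjusted p under 0.05 or passed the same F test without moderation across probes, as the methods used it. Of 12 measured genes of antigen processing outside the rule, 0 passed the limma F test or the unmoderated F test and 2 had an unadjusted p under 0.05. The immunoproteasome subunit genes, whose products cut peptides for class I, read 0.95 (psmb8a), 1.14 (psmb9a), 1.06 (psmb10) and 1.36 (psmb12) above the whole fish. In the same list cd74a, the invariant chain of class II, read -1.11 and ctss2.1, a cathepsin S, read -4.59. The list's median was 0.48, with 3 genes at least 2-fold higher (8.27% of all probes were) and 2 at least 2-fold lower (13% of all were).

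The chemokine ligands had the widest differences along the gut of any role, with a median of 0.82 log2 units between the highest and lowest segment mean. The CC chemokine gene ccl27a, whose human counterpart draws T cells to the skin, had its highest ratio in S5. In S1 it read -0.06, -0.90, -0.77, -1.44 and 0.00. The S2 values were -0.78, -2.55, -2.11, -1.01 and -0.69, the S3 values -1.44, -1.53, -0.99, -1.39 and -1.22, and the S4 values -1.19, 0.09, -1.53, -1.54 and -2.50. In S5 it read 0.39, 0.20, 0.14 and 0.48, above every array of S1 to S4, where 1.13% of all probes did not overlap between these groups in either direction. The S5 mean was 1.48 log2 units above the mean of S1 to S4 (SE 0.332, adjusted p = 0.00757). With scan resolution as a block the difference was 1.35 (adjusted p = 0.0286), and among finely scanned arrays 1.29 (adjusted p = 0.0271). The Cy5 signal was above background on 13 of 20 arrays in S1 to S4 and 4 of 4 in S5, and in the Cy5 signal alone S5 was 0.14 higher (adjusted p = 0.788). The mean log2 Cy3 signal, from the reference, was 9.99, 11, 10.9 and 10.6 in S1 to S4 and 9.28 in S5. The F test of ccl27a (adjusted p = 0.0291) missed the threshold without any one of the S5 arrays, with adjusted p from 0.0589 to 0.0879, and with scan resolution as a block (0.0575). It was also lost by the unmoderated F test (0.0612). The S5 difference missed the threshold in the authors' value table (2.23, adjusted p = 0.403) and after scale normalization between arrays (1.56, adjusted p = 0.062).

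The gene cxcl12a, whose product guides migrating cells through Cxcr4 receptors, was low throughout and lowest in S2. In S1 it read -0.94, -1.77, -1.31, -1.74 and -1.65, and in S2 -1.77, -2.27, -2.42, -2.1 and -2.15. The S3 values were -1.58, -1.76, -1.83, -1.82 and -2.05 and the S4 values -1.06, -1.55, -1.46, -1.24 and -1.5. In S5 it read -1.54, -1.49, -0.52 and -1.74. Every array lay below the whole fish, the mean being -1.62 (SE 0.063, adjusted p = 5.81e-17), about 3-fold lower. The segments differed by the F test (adjusted p = 0.0336). This call was lost without S1 replicate 3, S2 replicate 2, 3 or 4, or S4 replicate 1 or 4 (adjusted p 0.0521 to 0.097). It was lost by the unmoderated F test too (0.0517), and with scan resolution as a block (0.225), 4 of the 5 S2 arrays being coarse scans.

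The gene cxcl14, a chemokine made in epithelia of mammals, averaged 1.02 (SE 0.0925, adjusted p = 3.99e-10) and was above 0 on 24 of 24 arrays. From S1 to S5 its segment means were 0.91, 0.40, 0.95, 1.5 and 1.36, and its slope of 0.20 per segment did not pass (adjusted p = 0.125). It stood at the 2-fold limit: without S2 replicate 5, S4 replicate 3 or S5 replicate 5 the mean was 0.98, 1.00 or 0.99, just below it before rounding, and it was 0.81 with median centring. The other ligands, ccl38.6 and ccl38a.5, read 0.01 and 0.25. Among the receptors, cxcr4a and cxcr4b, the receptors of Cxcl12, read 0.08 and -0.22, and cxcr3.2, found on zebrafish macrophages, read 0.18. The single spots of cxcr4a, which carry the same identifier, spread from -0.24 to 0.53 in their means. Cy5 was above background in their average on 3 of 24 arrays. All 3 receptor genes had intervals between -0.35 and 0.29.

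**Figure D2:**
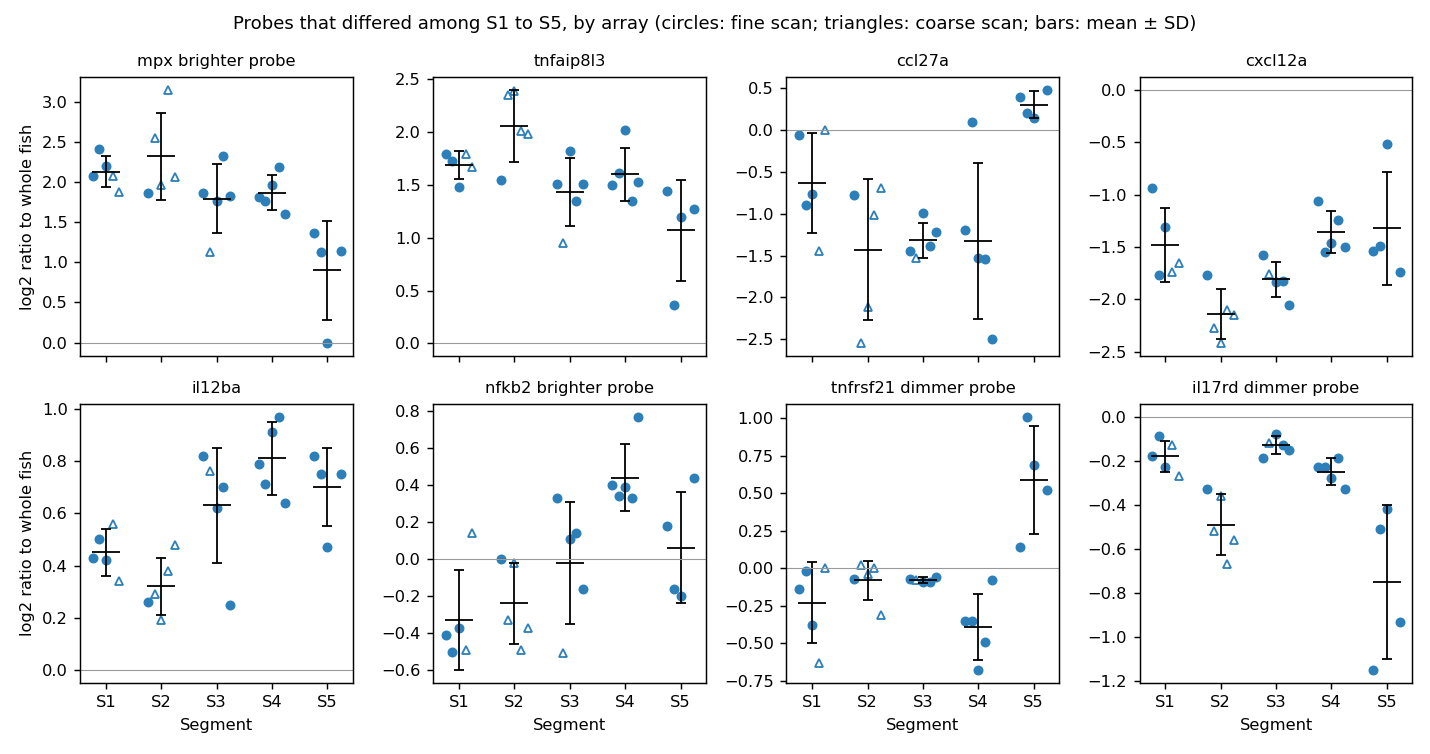
Log2 ratio to the whole fish by array for the 8 probes that passed the F test over S1 to S5; circles are finely and triangles coarsely scanned arrays, and black bars give the segment mean ± SD (n = 5, 5, 5, 5 and 4). The S5 arrays of ccl27a (0.14 to 0.48) and of the dimmer probe of tnfrsf21 (0.14 to 1.01) lie above all arrays of S1 to S4.

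Of the interleukin ligands, il12ba differed along the gut. It encodes the p40 chain of interleukin 12, which turns T cells to a type 1 response. Its probe was above background in both dyes on 24 of 24 arrays. In S1 it read 0.43, 0.50, 0.42, 0.56 and 0.34, and in S2 0.26, 0.29, 0.19, 0.38 and 0.48. The S3 values were 0.82, 0.76, 0.62, 0.70 and 0.25, the S4 values 0.79, 0.71, 0.91, 0.97 and 0.64, and the S5 values 0.82, 0.75, 0.47 and 0.75. Every array of S4 was above every array of S1 and S2. That comparison was not among the tests, and its share over all probes was not computed. The S4 arrays were all fine scans, while 2 arrays of S1 and 4 of S2 were coarse. The slope was 0.10 per segment (SE 0.0286, adjusted p = 0.037) and the F test gave an adjusted p of 0.0315. The slope call was lost without any one of 13 arrays, with adjusted p up to 0.0649, and with scan resolution as a block (slope 0.09, adjusted p = 0.164). The F test call was lost without any one of 10 arrays (adjusted p up to 0.0788) and with that block (0.106), and the Cy5 signal alone gave a slope of -0.01 (adjusted p = 0.961).

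The other interleukin ligands were il1b, a central inflammatory cytokine, at -0.27 with Cy5 above background on 4 of 24 arrays, and il15l at 0.28. Among the interleukin receptors, il17rd, known from zebrafish as an inhibitor of fibroblast growth factor signalling, has 2 probes, both below the whole fish. Its brighter probe averaged -0.97 (SE 0.0534, adjusted p = 4.09e-14), ranged from -1.47 to -0.09, and had Cy5 above background on 15 arrays. Its dimmer probe passed the F test (adjusted p = 0.00608) and was lower in S5 than in S1 to S4 (adjusted p = 0.00306), but its Cy5 signal was above background on 0 of 24 arrays, so no size is given. The brighter probe differed by -0.31 in the same comparison (95% interval -0.61 to -0.01), which did not pass (adjusted p = 0.238). The 2 probes correlated at r = 0.159 across arrays. The remaining receptors il4r.1, il11ra and il20ra read 0.27, 0.04 and 0.16.

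In the tumor necrosis factor (TNF) family, the receptor gene tnfrsf21, which encodes the death domain receptor known as DR6, was higher in S5 by its dimmer probe. In S1 this probe read -0.14, -0.02, -0.38, -0.63 and 0.00, and in S2 -0.07, 0.02, -0.04, 0.00 and -0.31. The S3 values were -0.07, -0.08, -0.09, -0.09 and -0.06, and the S4 values were -0.35, -0.35, -0.68, -0.49 and -0.08. In S5 it read 0.14, 1.01, 0.69 and 0.52, all above the 20 arrays of S1 to S4. The S5 mean was 0.79 higher (SE 0.126, adjusted p = 0.000264), and the F test gave 0.00192. Among finely scanned arrays the difference was 0.77 (adjusted p = 0.00435), and leaving out any single array kept the call. In the authors' value table the difference was 1.23 and missed the threshold (adjusted p = 0.247). Cy5 was above background on 9 of 20 arrays in S1 to S4 and on 4 of 4 in S5. The brighter probe of the same gene gave a difference of 0.25 (95% interval -0.05 to 0.54, adjusted p = 0.385), and the 2 probes correlated at r = 0.188.

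The receptor gene tnfrsf1a, whose product is the main receptor of TNF, had the lowest ratio of all members, with a mean of -4.18 (SE 0.181, adjusted p = 4.44e-16). It ranged from -5.07 to -0.21 with a median of -4.51. The Cy3 spot was saturated on 10 of 24 arrays, so that the ratio there is an upper limit. The highest value came from S5 replicate 3, and the next highest array read -3.63. This probe also had the largest spread within segments of any member (pooled SD 0.96). The other receptor probes lay close to the whole fish, with tnfrsfa at 0.33 and the probes of tnfrsf19 at 0.20 and -0.04.

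The spot annotated tnf read 0.68 (SE 0.0754, adjusted p = 1.39e-08), but that symbol is an older name of both the ligand gene tnfb and the receptor gene tnfrsfa, so which gene it measures is not known and it is only counted with the ligands. The ligand gene tnfa read 0.25 with Cy5 above background on 13 arrays. The genes tnfsf10 and tnfsf10l, relatives of the death ligand TRAIL, read -0.09 and -0.17. The third such gene, tnfsf10l4, read -0.65 with a difference of -0.56 between S5 and S1 to S4, which just missed the threshold (SE 0.167, adjusted p = 0.0505). None of the 5 ligand probes passed the F test in limma or by the unmoderated F test, and 1 had an unadjusted p under 0.05.

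Of the TNF-induced genes, tnfaip8l3 was the highest. Its human counterpart carries phosphoinositide lipids between membranes. It averaged 1.57 (SE 0.0627, adjusted p = 9.59e-17) and was above 0 on 24 of 24 arrays. In S1 it read 1.79, 1.73, 1.48, 1.79 and 1.67, and in S2 1.55, 2.35, 2.39, 2.01 and 1.98. The S3 values were 1.51, 0.95, 1.82, 1.35 and 1.51, and the S4 values 1.5, 1.61, 2.02, 1.35 and 1.53. In S5 it read 1.44, 0.36, 1.20 and 1.27, so that the groups overlapped. S5 differed from S1 to S4 by -0.63 (SE 0.167, adjusted p = 0.0268), but without S5 replicate 2 the difference was -0.39 (adjusted p = 0.237). With scan resolution as a block it was -0.61 (adjusted p = 0.0563). The F test (adjusted p = 0.0301) was lost without S2 replicate 2, 3 or 4 or S5 replicate 2 (0.0558 to 0.079) and with the scan block (0.138). In the Cy5 signal alone the S5 difference was -0.30 (adjusted p = 0.566) and the F test gave 0.73. The S5 difference also missed the threshold after median centring (-0.54, adjusted p = 0.153) and scale normalization (-0.84, adjusted p = 0.138). Cy3 was above background on 12 of 24 arrays and Cy5 on 21. The other genes of this role, tnfaip1, tnfaip8l1 and tnfaip8l2b, read -0.26, -0.23 and -0.18.

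The TLR genes were near the level of the whole fish. The brightest was tlr3, which senses double-stranded RNA, with a mean of 0.50 (SE 0.067, adjusted p = 3.49e-07) and values above 0 on 22 of 24 arrays. The genes tlr2, tlr21 and tlr4bb read -0.09, 0.06 and 0.07, and their Cy5 signals were above background on 1, 3 and 9 arrays. The interferon gamma receptor gene ifngr2 read 0.08, and ifng1, the interferon itself, was above background in Cy5 on 1 of 24 arrays. No TLR or receptor probe among these 5 passed the F test or the unmoderated F test, and 0 had an unadjusted p under 0.05.

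Of the NF-kB genes, nfkb2, which encodes the p100 subunit of the non-canonical pathway, differed along the gut in the ratio of its brighter probe. Its brighter probe read -0.41, -0.50, -0.37, -0.49 and 0.14 in S1 and 0.00, -0.33, -0.02, -0.49 and -0.37 in S2. The S3 values were 0.33, -0.51, 0.11, 0.14 and -0.16, and the S4 values 0.40, 0.34, 0.39, 0.33 and 0.77. In S5 it read 0.18, -0.16, -0.20 and 0.44. The S4 arrays, all fine scans, lay above all arrays of S1 and S2, a comparison outside the tests. Its share over all probes was not computed. The slope was 0.16 per segment (SE 0.044, adjusted p = 0.038) and the F test gave 0.0254. The slope was lost without any one of 11 arrays (adjusted p up to 0.084) and with the scan block (slope 0.12, adjusted p = 0.215). The F test was lost without S1 replicate 2 (0.0516) or S4 replicate 5 (0.0648) and with the scan block (0.129), and passed among finely scanned arrays (0.0379). In the Cy5 signal alone the slope was 0.13 (adjusted p = 0.71) and the F test gave 0.0749. Slope and F test also missed the threshold with the authors' value table (0.199 and 0.142) and after median centring (0.192 and 0.0607). The slope missed it among finely scanned arrays (0.15, adjusted p = 0.14) and after scale normalization (0.16, adjusted p = 0.0726) too. The dimmer probe of nfkb2 had a slope of 0.00 (95% interval -0.06 to 0.07) and Cy5 above background on 11 arrays. The inhibitor genes, which hold NF-kB in the cytoplasm, read 0.12 and 0.07 (nfkbiaa) and -0.44 (nfkbiab).

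Of the 8 IRF probes, 1 was at least 2-fold above the whole fish and 1 at least 2-fold below it. Of the 6 STAT probes, 1 was above and 0 below. Over all probes, 8.27% were at least 2-fold higher and 13% lower. No difference along S1 to S5 passed in these 2 roles. None of the 8 IRF and 6 STAT probes passed the F test in limma or by the unmoderated F test, and 0 had an unadjusted p under 0.05. The gene stat2 is joined by irf9 in the complex through which type I interferons act. It read 1.26 (SE 0.0731, adjusted p = 1.12e-13), with a lowest value of 0.52, a median of 1.26 and a highest value of 1.76, above 0 on 24 of 24 arrays. The partner gene irf9 read 0.62 (SE 0.0806, adjusted p = 1.69e-07), above 0 on 22 arrays, with Cy5 above background on 11. The gene irf10 read 1.25 (SE 0.0976, adjusted p = 2.83e-11), from -0.18 to 1.97. All but a few arrays thus lay above the whole fish for these genes. The gene irf7, the main inducer of type I interferon, read 0.96 (SE 0.122, adjusted p = 1.41e-07), from -0.55 to 1.99, and irf1b, which interferon gamma induces in mammals, read 0.92 (SE 0.148, adjusted p = 4.06e-06), from -0.82 to 2.1.

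Against these stood irf5, which acts downstream of TLRs in mammalian macrophages. It read -1.18 (SE 0.0609, adjusted p = 1.27e-14) and was below 0 on all 24 arrays, from -1.90 to -0.63. The gene irf2a read -0.86 and its relative irf2b 0.29, and irf8, which zebrafish need to form macrophages, read 0.50 with a range of -0.64 to 1.89. The remaining STAT genes lay between 0.14 (stat6) and 0.57 (the brighter probe of stat3). Beside them, 7 interferon-stimulated genes outside the rule were measured. Of these, 5 were at least 2-fold above the whole fish, where 8.27% of all probes were (rsad2 at 2.00, ifit8 at 1.95, mxa at 1.30, mxc at 1.27 and trim25 at 1.37). The others, mxe and adar, read 0.97 and -0.40. The median of the 7 genes was 1.30, and 0 passed the limma F test or the unmoderated F test or had an unadjusted p under 0.05. Of 19 measured signalling genes, 1 was at least 2-fold higher (caspa, an inflammatory caspase, at 1.24) and 1 at least 2-fold lower (socs3b, an inhibitor of STAT signalling, at -1.06), their median being -0.07. None of these 19 passed the limma F test or the unmoderated F test, while 3 had an unadjusted p under 0.05.

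The neutrophil genes mpx and lyz gave the largest ratios among the leukocyte genes, and the probes of mpx pointed opposite ways. The gene mpx encodes myeloperoxidase, the granule enzyme of neutrophils, and lyz encodes lysozyme. The brighter probe of mpx was above background in both dyes on 24 of 24 arrays and read 1.80 against the whole fish (SE 0.0819, adjusted p = 1.1e-15). In S1 it read 2.07, 2.41, 2.20, 2.08 and 1.88, and in S2 1.86, 2.55, 1.96, 3.15 and 2.06. The S3 values were 1.87, 1.13, 1.77, 2.33 and 1.83, and the S4 values 1.82, 1.77, 1.96, 2.19 and 1.60. In S5 it read 1.36, 1.13, -0.01 and 1.14. Of the 20 arrays of S1 to S4, S3 replicate 2 alone lay within the range of S5, and the next lowest read 1.60. S5 differed from S1 to S4 by -1.12 log2 units (SE 0.219, adjusted p = 0.00224), and the slope was -0.27 per segment (SE 0.0668, adjusted p = 0.0141). Among finely scanned arrays the difference was -1.07 (adjusted p = 0.00584). With scan resolution as a block the S5 difference was -1.18 (adjusted p = 0.00364), while the slope of -0.28 missed the threshold (adjusted p = 0.0535). No single array changed either call.

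The dimmer probe of mpx read -1.54 (SE 0.116, adjusted p = 1.51e-11), below 0 on all 24 arrays, from -2.39 to -0.22. The probes correlated at r = -0.192 across the 24 arrays, so that a level of mpx in the gut cannot be given from these data. In S5 the dimmer probe was 0.75 above S1 to S4, the opposite direction to the brighter one (95% interval 0.11 to 1.39), which did not pass (adjusted p = 0.18). The probe of lyz read -2.33 (SE 0.0817, adjusted p = 8.81e-18), from -2.85 to -0.70 with a median of -2.44. Every array was below the whole fish, and the highest value came from S5 replicate 3. Its means from S1 to S5 were -2.54, -2.58, -2.38, -2.21 and -1.93, and neither the F test (adjusted p = 0.413) nor the slope of 0.16 (0.126) passed.

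**Figure D3:**
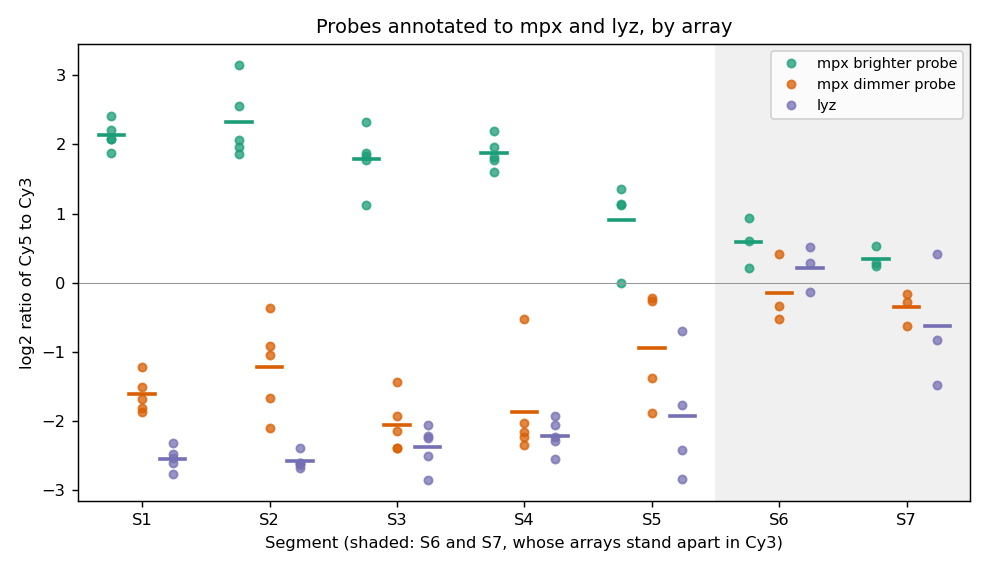
Log2 ratio by array for the probes annotated to mpx and for lyz in S1 to S7; points are arrays and lines segment means. In S1 to S4 the brighter probe of mpx lies between 1.13 and 3.15 and the dimmer one between -2.39 and -0.37, and lyz lies below 0 on every array of S1 to S5.

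The pan-leukocyte genes of the rule were near the whole fish. The gene lcp1, which encodes the actin bundling protein L-plastin, read 0.33 (SE 0.082, adjusted p = 0.000641), from -0.28 to 1.26. The gene coro1a, which encodes the actin regulator coronin 1A, read 0.06, from -0.61 to 0.74. The gene spi1b, which encodes the myeloid factor PU.1, read 0.07 with Cy5 above background on 7 arrays. Of the other pan-leukocyte genes measured, cd74a read -1.11, cd74b -0.61 and wasb 0.53, so that 1 of the 6 in that list was at least 2-fold lower. Beside them, the other measured neutrophil genes mmp9, mmp13a and npsn read -0.45, -0.44 and -1.63 and did not pass the F test. Of 7 measured macrophage genes, mfap4.1 alone passed, with means of 2.58, 2.40, 1.89, 1.65 and 0.57 from S1 to S5. The others did not share this fall. Between S5 and the mean of S1 to S4, mpeg1.1, c1qa, c1qb and c1qc differed by 0.39, 0.28, 0.13 and 0.49. For csf1ra and ctss2.1 the difference was -0.19 and -0.24, and none of these passed. The 7 measured T and NK cell genes had a median of 0.04, and of the B cell list only pax5 was measured, at -0.29. None of these 8 lymphocyte genes passed in limma or by the unmoderated F test, and 1 of them had an unadjusted p under 0.05.

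Of the 5 symbols that match the rule by letters only, irf2bpl read -1.04 (SE 0.0628, adjusted p = 2.09e-13) and was below 0 on all 24 arrays, though at -0.95 in finely scanned arrays it was under 2-fold. The brightest of them, irf2bp2a, read -0.56, and 0 of the 5 passed the limma F test or the unmoderated F test or had an unadjusted p under 0.05.

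Of the complement and antimicrobial genes outside the rule, 6 of 10 measured passed the F test, where 6.17% of all probes did. The genes c3a.1, c3a.2, c9 and cfb, which encode plasma complement proteins made mainly in the liver, had their lowest means in S3, at -2.36, -2.17, -1.64 and -2.24, and their highest in S1, at -0.47, -0.47, 0.13 and 0.03. The liver genes fga, fgb and fabp10a had their lowest means in S3 too, at -2.01, -2.43 and -2.11, and the part of liver RNA in the complement values was not tested. The gene mbl2, which encodes a mannose-binding lectin, fell from 2.86 in S1 to 1.46 in S5, and cfd, complement factor D, rose from -0.52 in S1 to 1.18 in S4 and 0.96 in S5. The ratio of the exocrine pancreas gene ela2 went from -0.29 in S1 to 1.54 in S5, but its Cy5 spot was saturated on 24 of 24 arrays. It thus gives neither the size nor the direction of a change in the segments. The part of pancreas tissue in the cfd values was not tested.

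Members differed in how far arrays of one segment agreed. The pooled SD within segments had a median of 0.314 over the 74 probes. It was highest for tnfrsf1a (0.96), mhc1uba (0.91), irf1b (0.781) and irf8 (0.777). Arrays that share a replicate number tended to deviate together in mhc1uba, irf1b and irf8, a pattern chosen after the values were seen and given here as a description. For tnfrsf1a no replicate number was the highest in more than 2 segments. The gene irf8 was highest in replicate 5 in all 5 segments, at 1.89, 1.57, 1.68, 0.91 and 1.55 from S1 to S5, while replicate 1 read -0.04, 0.00, -0.23, -0.21 and -0.64. That is 1.35% of the members, where 0.128% of all probes were highest in replicate 5 throughout. Replicate 5 was also the highest in 4 of 5 segments for mhc1uba, irf1b, coro1a, tlr3, ccl38.6, tnfsf10l and the brighter probe of b2ml. Other numbers reached this too, replicate 3 for irf7 and stat2 and replicate 1 for cxcl12a. The share of all probes that were highest in 4 of 5 segments was not computed.

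Replicate 1 was the lowest in all 5 segments for mhc2dhb, lcp1 and the dimmer probe of b2ml, which is 4.05% of the members, where 0.621% of all probes were lowest in it throughout. For mhc2dhb it read -1.02, -1.34, -1.41, -1.64 and -1.47, and replicate 5 read -0.54, -0.98, -0.24, -0.10 and 0.58. Across the 74 members, deviations from the segment mean correlated at a mean r of 0.188 between arrays of one number (46 pairs, from -0.274 to 0.612) and of -0.0476 between arrays of other numbers. The pairs of number 1 had a mean r of 0.379 and those of number 5 of 0.258, where the arrays share probes and reference RNA. Neither the labels nor the methods say that a number marks one set of fish.

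**Figure D4:**
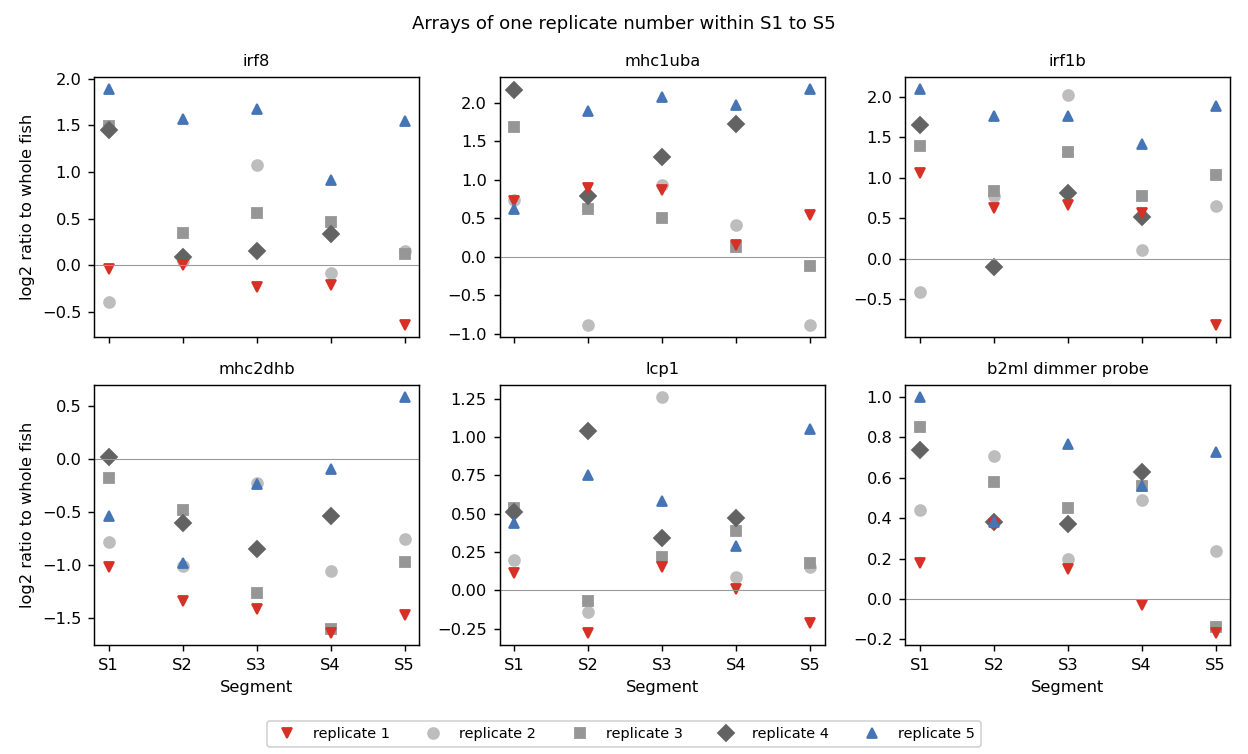
Log2 ratio to the whole fish in S1 to S5 by replicate number for 6 members, 1 point per array. For irf8 the replicate 5 arrays (0.91 to 1.89) are the highest of each segment, and for mhc2dhb, lcp1 and the dimmer probe of b2ml the replicate 1 arrays are the lowest.

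In S6 and S7 the ratios cannot be read apart from the reference dye. By limma's F test over all 7 segments, at the study's Bonferroni limit of 0.1, 9 of 75 tested probes passed (12%, where 14.2% of all 21396 did). Against S1 to S5, 31 of 75 probes differed in S6 (41.3%, against 51.3% of all), 13 higher (26.1% of all were) and 18 lower (25.2% of all were). In S7, 39 differed (52%, against 52.4% of all), 17 higher (26.8% of all were) and 22 lower (25.6% of all were). The arrays did not overlap for 7 probes in S6 (9.33%, against 17.4% of all) and for 13 in S7 (17.3%, against 21.4% of all). All 6 arrays of S6 and S7 were coarse scans with smaller spots of 80 pixels, so that segment, array type and reference signal cannot be told apart.

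Upward in S6, the probes whose arrays stood clear of S1 to S5 were tnfrsf1a, lyz, cxcl12a and tnfsf10l4, all below the whole fish on every array of S1 to S5. The ratio of tnfrsf1a was 0.78, 0.14 and 0.11 in S6, 4.53 above S1 to S5 (SE 0.491, adjusted p = 1.4e-08), a lower limit because Cy3 was saturated on 10 of the 24 arrays of S1 to S5, while its Cy5 signal alone differed by -0.64 and its Cy3 signal by -5.17, a limit for the same reason. The ratio of lyz was 0.28, -0.14 and 0.51, a difference of 2.54 (SE 0.28, adjusted p = 1.86e-08), with Cy5 at -0.65 and Cy3 at -3.19. That of cxcl12a was 0.22, 0.15 and 0.70, a difference of 1.98 (SE 0.204, adjusted p = 5.84e-09), with Cy5 at -0.08 and Cy3 at -2.06. The ratio of tnfsf10l4 rose by 1.30 (adjusted p = 2.64e-06) with Cy5 at -1.01. In each of these 4 genes the ratio was higher while the mean Cy5 signal of the segment RNA was not, and Cy5 was above background on 1 or 2 of the 3 arrays.

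Downward in S6, stat2 read -0.08, -0.66 and -0.48, a difference of -1.66 (SE 0.245, adjusted p = 2.43e-06). Its Cy5 signal alone differed by -3.70, with 1 of 3 arrays above background, and its Cy3 signal, from the reference, by -2.04. The genes tnfrsfa and irf2b were lower in ratio by -0.93 (adjusted p = 0.000201) and -0.84 (adjusted p = 0.00373) while their Cy5 signals were 2.62 and 0.81 higher. The call for irf2b was lost without S6 replicate 3 (adjusted p = 0.0552). Of the 7 probes whose S6 arrays stood clear of S1 to S5, stat2 alone kept its direction in the Cy5 signal, where its Cy3 signal was lower too.

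In S7, irf10 read -0.45, -0.24 and -1.24, a difference of -1.89 (SE 0.298, adjusted p = 5.87e-06), with a Cy5 difference of 0.04. The class I gene mhc1zba read -0.90, -0.85 and -0.28, a difference of -1.34 (SE 0.239, adjusted p = 3.11e-05). Its Cy5 signal differed by -3.72, with 1 of 3 arrays above background, and its Cy3 signal by -2.38. The brighter probe of nfkb2 differed by -0.68 (adjusted p = 0.011) and tnfaip8l2b by -1.07 (adjusted p = 0.00018), both with higher Cy5 signals, by 2.76 and 1.88. The dimmer probe of nfkb2 was 0.83 higher (adjusted p = 2.74e-05) with Cy5 0.42 higher and above background on 1 array. The dimmer probe of il17rd was also higher, but it was above background in Cy5 on 0 arrays of S1 to S5 and has no size, and its call was lost without S7 replicate 5 (adjusted p = 0.142).

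The other S7 probes that stood clear of S1 to S5 were above background in Cy5 on 0 of 3 arrays and have no size either. They were tnfaip8l3, stat2, the brighter probe of stat3 and il20ra, which were lower, and tnfsf10l4, tnfaip8l1 and the brighter probe of il17rd, which were higher. The call for tnfaip8l1 was lost without S7 replicate 3 (adjusted p = 0.0722).

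**Figure D5:**
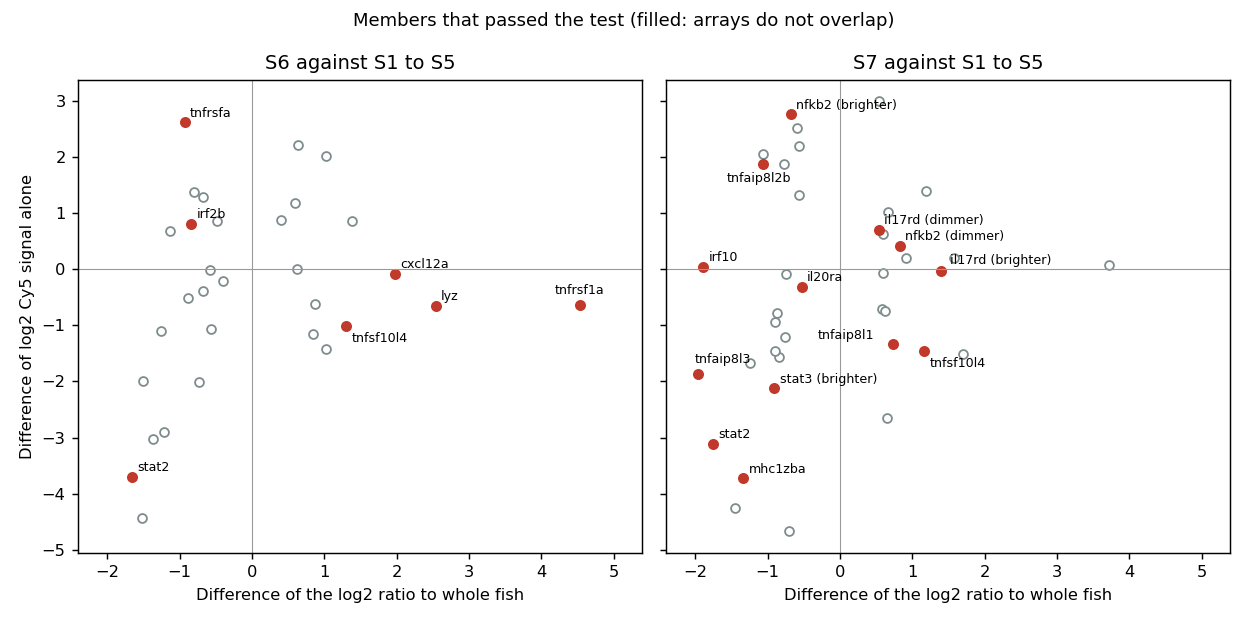
Difference of S6 and of S7 from S1 to S5 in the log2 ratio (horizontal) and in the log2 Cy5 signal alone (vertical) for the members that passed the test, 31 in S6 and 39 in S7; filled points did not overlap in ratio. Points in the lower right, such as lyz in S6 (2.54 and -0.65), are higher in ratio and lower in the Cy5 signal.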

How the data were processed

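Spotted oligonucleotide arrays were scanned by the authors, who deposited spot and background intensity for both dyes, the percent of spot pixels above background, a ratio of means times a factor per array, and its log2. Per the methods, ratios were normalized by LOWESS within and then across arrays in Gene Cluster; the scanning software is not given in the sources used here. The log2 values in the authors' table equal those of the array files within 0.005 and served as an alternative. They are the log2 of the ratio times a factor per array, so this alternative is not the LOWESS normalization named in the methods.

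Intensities were background corrected (normexp, offset 50) and loess normalized within arrays in limma 3.58.1 (R 4.3.3, package data.table, version 1.17.8). The 245 control spots had weight 0 and were left out, except that the mean of the 15 cxcr4a spots among them was kept. Tests took probes whose spot median, in Cy5 or in Cy3, exceeded background by 2 SD on 3 or more arrays of one segment. A spot at 65000 or more counted as saturated. Linear models with empirical Bayes moderation were fitted to all tested probes, with Benjamini-Hochberg adjustment, or Bonferroni over the 7 segments as in the methods. The procedure was tested on simulated data. Symbols were updated through synonyms (7978 of 11724 annotated spots) or accession (25), and 4 spots that matched the rule only by an older symbol were left out of the members.

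Named with values were members passing a test over S1 to S5, the 8 highest and 8 lowest mean ratios among members above background on at least 12 arrays, the brightest of each role, the leukocyte and MHC genes, and up to 6 non-overlapping members each way in S6 and S7. Other members are given as group values. The members and lists were chosen with earlier results of these data known. Each replicate was a separate pool. The number of arrays limits the precision.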

Additional observations from a re-analysis of the deposited data

Results flagged for a closer look

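In 10 of 100 groups of 4 or 5 arrays, over 20 genes, 1 array lay far from the others by Dixon's criterion, which chance gives for about 1 in 20 groups. The groups share arrays and are not independent, so these counts cannot show an excess. In S2 the distant arrays were the dimmer probe of tnfrsf21 in replicate 5 (-0.31), cxcl14 in replicate 5 (1.30) and lyz in replicate 1 (-2.39). In S4 they were irf10 in replicate 3 (1.64), the dimmer probe of mpx in replicate 2 (-0.53), and the brighter probe of nfkb2 (0.77), irf5 (-0.71) and the brighter probe of il17rd (-0.65) in replicate 5. The others were the brighter probe of nfkb2 in S1 replicate 5 (0.14) and that of mpx in S5 replicate 3 (-0.01).

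Segments differed by limma's F test over S1 to S5 for 8 probes. The adjusted p was 0.00192 for the dimmer probe of tnfrsf21, 0.00608 for the dimmer probe of il17rd, 0.0112 for the brighter probe of mpx and 0.0254 for the brighter probe of nfkb2. It was 0.0291 for ccl27a, 0.0301 for tnfaip8l3, 0.0315 for il12ba and 0.0336 for cxcl12a.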

How the results depend on the processing

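Of the member counts, the F test over S1 to S5 (8 probes) gave 5 after median centring or scale normalization, 4 with the authors' value table or the Cy5 signal alone, 3 with scan resolution as a fixed block or in finely scanned arrays, and 0 at the methods' Bonferroni limit of 0.1, where 14 had an unadjusted p under 0.05 in limma. Of all 19480 probes, 1201 passed in the main fit, and 1102, 1108, 1063, 947, 956, 789 and 219 in these settings in turn. With the fixed block the members' share was no longer above that of all probes. The slope (3) gave 1 after median centring, after scale normalization, with Cy5 alone or in finely scanned arrays, and 0 with the fixed block, where the unadjusted fit without it had 16. S5 against S1 to S4 (5) gave 3 after median centring, scale normalization or with Cy5 alone, and 2 with the authors' table. Over all probes 1077 passed this contrast, and 661, 824, 766 and 720 in these settings in turn. The whole-fish count (11) was 19 with the authors' table, which shifted the median of all probes by -0.13. Over all probes this count was 4140 in the main fit and 6881 with that table. The F test over 7 segments (9) gave 4 after scale normalization and 4 of the 46 members then tested with dim spots missing, 20 with Cy5 alone and 5 with the fixed block. Of all 21396 probes 3042 passed it, and 2823 after scale normalization, 6474 with Cy5 alone and 1880 with the fixed block. With dim spots missing 2332 of 11627 passed. S6 (31) gave 53 with Cy5 alone, S7 (39 of 75) gave 24 of the 46 then tested with dim spots missing, where 6759 of all 11627 probes passed, and both gave 20 in coarsely scanned arrays against S1 to S3. For S6, 10975 of all 21396 probes passed in the main fit and 14028 with Cy5 alone. In the coarsely scanned arrays 6043 passed for S6 and 6304 for S7. The scan resolution settings were chosen after seeing the data. Leaving out 1 array gave 5 (without S2 replicate 2, 3 or 4 or S5 replicate 2) to 10 (without S2 replicate 5) for the F test, 1 (without S1 replicate 1 or 3, S2 replicate 2 or 4 or S4 replicate 1 or 4) to 4 (without S3 replicate 2) for the slope, 4 (without S5 replicate 2) to 8 (without S5 replicate 5) for S5, 10 to 13 for the whole fish, 8 to 10 for the 7 segments, 28 to 35 for S6 and 28 to 41 for S7. With Cy5 alone 18 gene results turned sign. They were the slope of il12ba (-0.01), in S6 irf2b (0.81), cxcl12a (-0.08), tnfsf10l4 (-1.01), tnfrsf1a (-0.64), tnfrsfa (2.62), il17rd brighter probe (-0.62), tnfaip8l2b (1.29), irf10 (0.67) and lyz (-0.65), and in S7 irf2b (2.05), tnfsf10l4 (-1.45), tnfrsfa (1.32), tnfaip8l1 (-1.34), il17rd brighter probe (-0.03), tnfaip8l2b (1.88), irf10 (0.04) and lyz (-1.52). Of 619 gene values under alternatives other than leaving out an array, 510 kept direction and side of the threshold and 91 missed it. The causes were not tested. The replicate numbers did not meet the bar for pairing over all probes, although the 74 members gave a mean r of 0.188 for arrays of one number: deviations of 46 same-number pairs over all probes correlated at -0.63 to 0.526 (mean 0.0555, 16 over 0.1), and 9 of 24 arrays were closest to their own number. With the number as a replicate block the F test of ccl27a was lost (adjusted p = 0.0699), and the counts were 8 for the F test, 3 for the slope, 7 for S5, 11 for the whole fish, 8 for the 7 segments, 33 for S6 and 43 for S7. Over all probes they were 1224, 912, 1074, 4137, 2613, 10794 and 11088 in the same order.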
